A study of Mus musculus with 6 samples.

Results

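The complement components and receptors followed here are 9 genes: C1qa, C1qb and C1qc, which encode the chains of C1q; C4b and C3, the central components of the cascade; C3ar1 and C5ar1, the receptors of the anaphylatoxins; and Itgam and Itgb2, the subunits of complement receptor 3. They were chosen by gene symbol, each matched 1 row of the deposited expression table, and they are 9 of its 36210 gene rows. The RNA came from brains of 8-month-old APP/PS1 mice, a transgenic amyloid model that forms plaques. In the tested group AVE0991, a non-peptide agonist of the receptor for angiotensin-(1-7), was injected intraperitoneally at 10 mg per kg once a day for 30 days. The comparison group, called vehicle, received sterile saline by the same route and schedule. Each group had 3 libraries. All 6 came from APP/PS1 mice, so there was no group without the transgenes. The labels name neither the promoters that drive the transgenes nor any pooling of animals. Nothing in the labels says that each library came from its own mouse, so the p-values measure the spread between these libraries, which may be technical.

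Complement is a cascade of serum and tissue proteins that tags surfaces for removal by phagocytes. In the classical pathway C1q binds a target and its associated proteases cleave C4 and C2, which leads to cleavage of C3. C3 fragments that stay on the target are recognised by complement receptor 3 on phagocytes, and the small fragments C3a and C5a signal through their own receptors. In the brain microglia are the main source of C1q and carry complement receptor 3, while C4 and C3 are also made by reactive astrocytes. C1q, C3 and complement receptor 3 take part in microglial removal of synapses in mouse brain, including in amyloid models.

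The labels give the cells as astrocytes, but transcripts of microglia and of other brain cells were present in every library. Library totals on gene rows ran from 46263725 to 50066692 estimated counts in AVE0991 and from 44583296 to 49002304 in vehicle libraries. Levels below are CPM, counts scaled to the library size after TMM normalization, unless they are stated as the authors' FPKM, which is per transcript length and so allows genes to be compared with each other. The 10 astrocyte markers summed to 6499 to 7870 CPM in AVE0991 and 5715 to 7111 CPM in vehicle libraries. The 10 microglia markers summed to 342 to 485 CPM in AVE0991 and 369 to 438 CPM in vehicle libraries, and the 8 neuron markers to 4065 to 4679 CPM and 4530 to 5403 CPM in the same groups. No gene of these lists was at 0 in any library. AVE0991 replicates 2 and 3 stood apart in cerebellar granule cell markers, whose sum was 2063 and 2024 CPM there, 209 CPM in AVE0991 replicate 1 and 182 to 207 CPM in vehicle libraries. In bulk RNA, fewer cells of a type and less RNA per cell cannot be told apart.

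No member was called between AVE0991 and vehicle libraries. By edgeR's quasi-likelihood test, adjusted over all 20363 genes tested, 0 of 9 members passed an adjusted p under 0.05 in either direction, where 0.864% of all genes did, 0.0344% higher and 0.83% lower in AVE0991. None had an unadjusted p under 0.05, against 23.6% of all genes, and DESeq2 and limma-voom also called 0 of 9, where they called 9.85% and 5.75% of all genes. All 9 members passed the filter on low counts. The log2 fold change was above 0 in 8 of the 9, where it was above 0 in 10042 of all 20363 genes. Its median was 0.13 over the members and -0.01 over all genes tested. The edgeR adjusted p-values of the members ran from 0.236 to 0.712. The C1q chains followed each other closely, as did Itgam and Itgb2, so the 9 are not separate observations. Once the levels were adjusted for transcript GC content, as described below, the medians were 0.07 over the members and -0.02 over all genes. The groups did not overlap in 1 of the 9 members, C5ar1, where AVE0991 was higher; they did not overlap in 30.6% of all genes tested, with AVE0991 higher in 14.3% and lower in 16.3%. Without AVE0991 replicates 2 and 3, which leaves 1 library in that group that is assumed to vary like the others, 0 of all 21972 genes tested were called, so the 0 calls among members there say nothing about them.

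**Figure D1:**
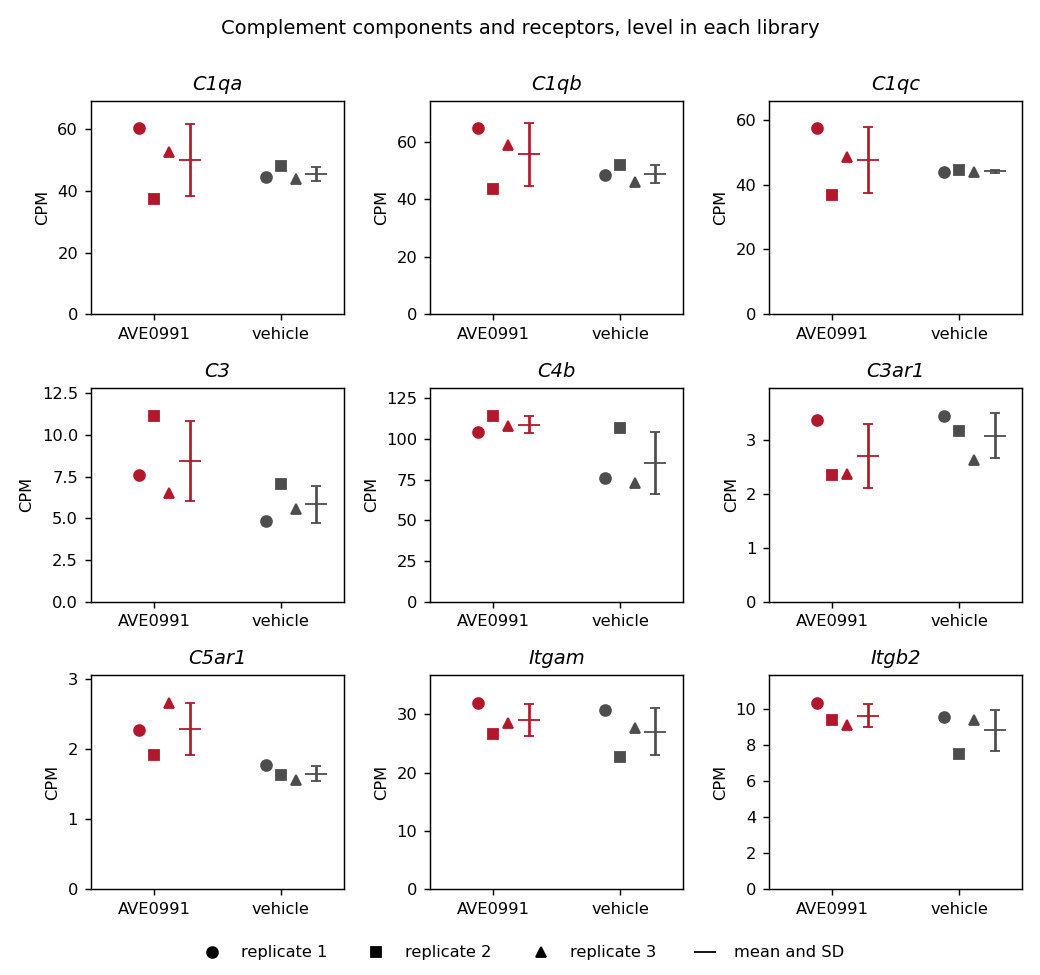
Level of each complement gene in CPM (y axis, from 0) in the 3 AVE0991 libraries (left, red) and the 3 vehicle libraries (right, grey); marker shapes give the replicate and the bars the mean and SD. C5ar1 is the 1 gene of the 9 whose AVE0991 libraries (1.92 to 2.66 CPM) all lie above the vehicle libraries (1.55 to 1.76 CPM). The same held in 14.3% of all genes tested.

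The members differed widely in level. Per transcript length, in the authors' FPKM over all 6 libraries, C1qb was highest at a mean of 51.8, followed by C1qa at 46.5 and C1qc at 46.0. C4b followed at 18.1 FPKM, Itgam at 6.04, Itgb2 at 3.28 and C3 at 1.40. C5ar1 and C3ar1 were lowest, at 0.798 and 0.757 FPKM. Most of this order held in every library: C1qb was above C1qa and C1qc in 6 of 6 libraries, each C1q chain above C4b, C4b above Itgam, Itgam above Itgb2 and Itgb2 above C3. C1qa and C1qc did not separate, with C1qa higher in 3 of 6 libraries. C5ar1 and C3ar1 did not separate over all libraries either, with C5ar1 higher in 3 of 6, and C3 was above C3ar1 in 5 of 6.

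C1q is the recognition molecule of the classical pathway, assembled from equal numbers of A, B and C chains. Its genes lie next to each other on chromosome 4 in the order C1qb, C1qc and C1qa in the RefSeq annotation of GRCm38.p6, and their levels followed each other closely here. For C1qa the AVE0991 replicates 1, 2 and 3 gave 60.2, 37.3 and 52.4 CPM, and the vehicle replicates 44.6, 48.0 and 43.9 CPM. The C1qa libraries of AVE0991 thus held both the highest and the lowest level of the series. The C1qb transcript reached 64.7, 43.5 and 58.8 CPM with AVE0991 and 48.4, 52.1 and 45.9 CPM with vehicle. C1qc followed with 57.3, 36.9 and 48.5 CPM under AVE0991 and 43.9, 44.5 and 43.8 CPM under vehicle. In all 3 chains replicate 1 was highest and replicate 2 lowest of the 6 libraries, so the groups overlapped.

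Between groups the mean CPM of each C1q chain differed by less than the SD of the AVE0991 libraries, but by more than that of the vehicle libraries. The log2 fold change was 0.13 for C1qa (SE 0.17, edgeR adjusted p = 0.678), with a 95% interval from -0.28 to 0.55. It was 0.19 for C1qb (SE 0.16, interval -0.18 to 0.56) and 0.11 for C1qc (SE 0.16, interval -0.27 to 0.49). The SD was 10.3 to 11.6 CPM in AVE0991 and 0.395 to 3.09 CPM in vehicle libraries over the 3 chains. C1q and the microglia markers were both low in AVE0991 replicate 2 but did not go together in every library. The marker median deviation from the mean of the 6 libraries was -0.42 on the log2 scale in that library, where C1qa, C1qb and C1qc stood at -0.34, -0.25 and -0.30. In AVE0991 replicate 1 both stood high, the markers at 0.26 and the chains at 0.32 to 0.35. They parted in AVE0991 replicate 3, with the markers at -0.06 and the chains at 0.09 to 0.19, and in vehicle replicate 1, with the markers at 0.25 and the chains at -0.10 to -0.05. In vehicle replicate 2 the markers were at -0.10 and the chains at -0.03 to 0.02, and in vehicle replicate 3 the markers were at 0.04 and the chains at -0.17 to -0.05. The part of microglial content in the C1q levels was not tested beyond this. Without AVE0991 replicate 1 the log2 fold change was -0.02 for C1qa, 0.07 for C1qb and -0.04 for C1qc; without AVE0991 replicate 2 it was 0.31, 0.34 and 0.27. Without AVE0991 replicates 2 and 3, the libraries rich in cerebellar granule markers, it was 0.41, 0.42 and 0.39.

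The proportion of the chains was close to constant. The FPKM ratio of C1qa to C1qb was 0.912, 0.841 and 0.874 in AVE0991 and 0.904, 0.905 and 0.938 in vehicle replicates 1, 2 and 3, and that of C1qc to C1qb ranged from 0.833 to 0.963 over all 6 libraries. The ratio of C1qa to the geometric mean of the other chains was 0.908 to 0.963 in AVE0991 and 0.944 to 0.973 in vehicle libraries (two-sided exact permutation p = 0.7; adjusted p = 0.8 over 5 relative values). With 3 libraries against 3 this test cannot give a p under 0.1. Set against the microglia markers, the summed C1q level was 1.01, 0.963 and 1.09 times their summed FPKM in AVE0991 libraries and 0.816, 1.03 and 0.879 times in vehicle libraries. The groups overlapped, and the difference of 0.17 on the log2 scale had an exact permutation p of 0.3 (adjusted p = 0.8). C1q profiles resembled each other more than those of most other pairs of members. The root mean square difference of their centred log2 CPM over the 6 libraries was 0.04 to 0.07 between chains, against 0.17 to 0.48 between a chain and any other member. Among 13621 genes those most like the mean C1q profile by this measure included Suv39h1 (0.03), a histone methyltransferase gene, and Atxn7l2 (0.04).

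**Figure D2:**
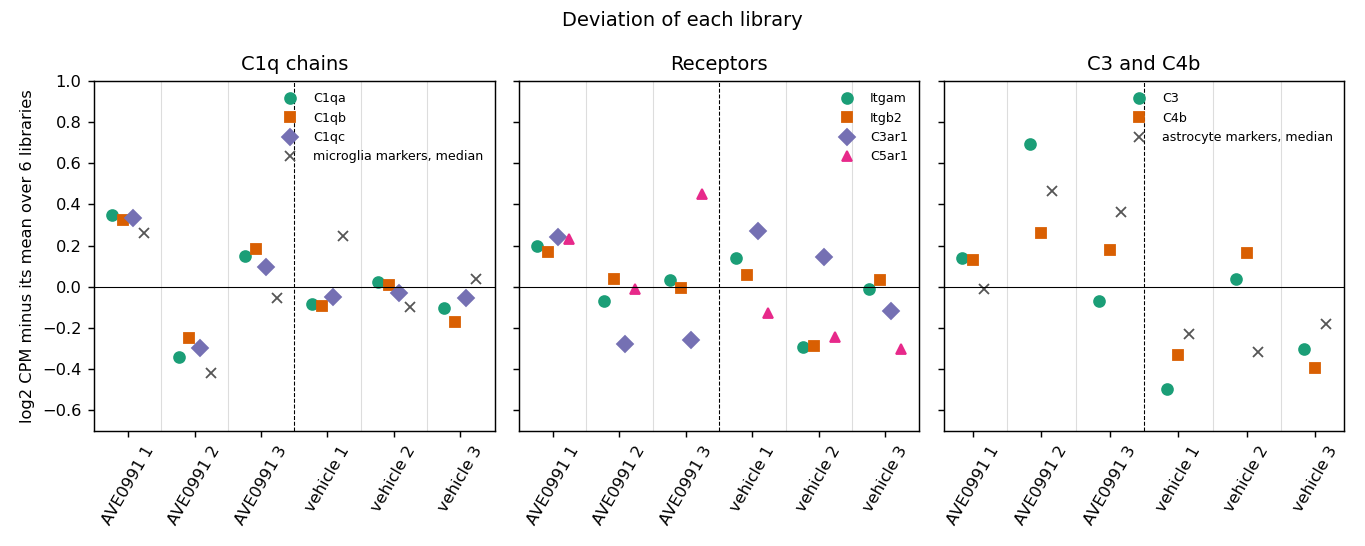
Deviation of log2 CPM from its mean over the 6 libraries (y axis) in each AVE0991 and vehicle library (x axis), for the C1q chains with the median of the microglia markers, for the receptors, and for C3 and C4b with the median of the astrocyte markers. The 3 C1q chains lie together in every library, highest in AVE0991 replicate 1 and lowest in AVE0991 replicate 2; Itgam and Itgb2 lie together as well, while C3ar1 and C5ar1 part.

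The promoter-side sequences of C1qb and C1qc are shown because these genes moved together, and that of C5ar1 because its groups did not overlap. They are the 250 bases before the RefSeq gene start in GRCm38.p6, 5′ to 3′ on the gene's strand, and serve as sequence only, since the deposited values were aligned to mm9. Capitals mark ACTTCCT, the reverse complement of AGGAAGT, a core recognised by the myeloid factor PU.1. The windows of Itgam, C3 and C3ar1 held no such match and are not shown, although Itgam moved together with Itgb2. The windows shown are chr4:136886201-136886450 for C1qb, chr4:136892915-136893164 for C1qc and chr7:16259339-16259588 for C5ar1, all on the minus strand.
C1qb: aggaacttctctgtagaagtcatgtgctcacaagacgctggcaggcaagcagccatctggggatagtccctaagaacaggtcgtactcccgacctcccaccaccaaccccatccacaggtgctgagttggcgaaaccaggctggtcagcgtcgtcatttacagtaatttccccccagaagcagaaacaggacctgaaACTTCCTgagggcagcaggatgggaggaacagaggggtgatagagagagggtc
C1qc: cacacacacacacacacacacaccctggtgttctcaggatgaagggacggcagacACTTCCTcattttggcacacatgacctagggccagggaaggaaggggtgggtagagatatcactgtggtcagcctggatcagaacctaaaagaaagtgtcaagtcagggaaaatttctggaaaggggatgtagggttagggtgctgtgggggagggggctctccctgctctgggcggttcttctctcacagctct
C5ar1: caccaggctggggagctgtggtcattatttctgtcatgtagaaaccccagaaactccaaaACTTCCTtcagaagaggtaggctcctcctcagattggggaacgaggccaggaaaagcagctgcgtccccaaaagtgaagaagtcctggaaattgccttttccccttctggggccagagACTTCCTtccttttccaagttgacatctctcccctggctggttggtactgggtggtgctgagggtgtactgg

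A window was at hand for 6 of the 9 members. AGGAAGT, searched on both strands, was in 3 of the 6 (C1qb, C1qc and C5ar1) and in 7.69% of 32851 mouse windows of the same length. The match began 53 bases before the start in C1qb, 195 in C1qc, and 190 and 72 in C5ar1. An ETS-IRF composite motif, which can overlap AGGAAGT, was in 0 of the 6 and 2.3% of all windows, and a kappa-B-type motif in 0 of the 6 and 0.98%. The C/EBP-type TTGCNNAA was in 1 of the 6, C3, and in 9.56% of all windows. A match is a match of letters in the window and shows no binding.

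C4b and C3 carry the cascade onward. C4b encodes complement C4, and C3 the protein on which all pathways converge. The AVE0991 replicates 1, 2 and 3 held 104.5, 114 and 108 CPM of C4b, and the vehicle replicates 75.9, 107 and 72.7 CPM. Vehicle replicate 2 lay within the range of the AVE0991 libraries, and the other vehicle libraries below it. The log2 fold change was 0.35 (SE 0.16, interval -0.03 to 0.74), and C4b did not pass (edgeR adjusted p = 0.236). C4b was the 1 member with estimated counts that were not whole, in all 6 libraries. C4a, its near-identical paralog, averaged 0.388 CPM in AVE0991 and 0.231 CPM in vehicle libraries, also with counts that were not whole, so the division of reads between C4b and C4a is uncertain. Relative to the summed FPKM of the astrocyte markers, C4b differed by -0.07 on the log2 scale (exact permutation p = 0.8, adjusted p = 0.8). That ratio pointed the other way, at 0.18, when computed from CPM. The astrocyte markers themselves had a median log2 fold change of 0.54, with AVE0991 above vehicle without overlap in 7 of 10 genes, where 14.3% of all genes did so. By edgeR 0 of the 10 were called, where 0.864% of all genes were. DESeq2 called 4 and limma-voom 5, all higher, where they called 4.09% and 2.2% of all genes higher. The median deviation of these markers from the mean of the 6 libraries was -0.01, 0.47 and 0.37 on the log2 scale in AVE0991 replicates 1 to 3. In vehicle replicates 1 to 3 it was -0.23, -0.32 and -0.18. AVE0991 replicates 2 and 3 were also the libraries rich in cerebellar granule markers. The part of the astrocyte markers in the C4b level was not tested further.

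For C3, AVE0991 replicates 1, 2 and 3 gave 7.58, 11.1 and 6.54 CPM, and the vehicle replicates 4.85, 7.06 and 5.56 CPM. AVE0991 replicates 1 and 2 were above all vehicle libraries, and replicate 3 was below vehicle replicate 2. Its log2 fold change of 0.53 (SE 0.25, interval -0.05 to 1.11) was the largest of the members and did not pass (adjusted p = 0.243); without AVE0991 replicate 2 it was 0.28. In the authors' deposited table C3 had a log2 fold change of 0.55 with a p-value of 0.0414 and a q-value of 0.289, the smallest p and q of the 9 members there. In each group the library with the highest C3 and the highest C4b, replicate 2, was also the library with the highest endothelial and choroid plexus markers. The 6 endothelial markers summed to 40.4, 121 and 64.4 CPM in AVE0991 and 61.7, 131 and 64.9 CPM in vehicle replicates 1, 2 and 3. The 6 choroid plexus markers summed to 378, 550.2 and 380 CPM in AVE0991 and 136, 1389 and 774 CPM in vehicle libraries, with no gene of either list at 0. Their part in the C3 and C4b values was not tested. Among 13623 genes the profiles most like that of C3 included those of Ttll9 (0.08) and Pgf (0.11), a growth factor gene, and C4b ranked 450th (0.22). The genes most like C4b were Hfe (0.05), an iron-regulating gene, Cilp2 (0.06) and Serpinf1 (0.06), which encodes pigment epithelium-derived factor.

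The receptors of the anaphylatoxins, C3ar1 for C3a and C5ar1 for C5a, are found mainly on microglia in the brain. C5ar1 reached 2.27, 1.92 and 2.66 CPM with AVE0991 and 1.76, 1.62 and 1.55 CPM with vehicle, replicates 1 to 3 in each. All 3 AVE0991 libraries were above all 3 vehicle libraries, on 88 to 117 counts against 78 to 83 counts. The same held in 14.3% of all genes tested. The log2 fold change of C5ar1 was 0.47 (SE 0.21, interval -0.03 to 0.97, adjusted p = 0.236) and did not pass. C3ar1 gave 3.39, 2.35 and 2.38 CPM with AVE0991 and 3.46, 3.17 and 2.63 CPM with vehicle. AVE0991 replicate 1 lay among the vehicle libraries and the other 2 below them. C3ar1 was the 1 member with a negative log2 fold change, -0.19 (SE 0.23, interval -0.72 to 0.35, adjusted p = 0.651).

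The balance of the 2 receptors was examined after their values were seen and was not tested. The FPKM ratio of C5ar1 to C3ar1 was 1.11, 1.43 and 1.92 in AVE0991 and 0.695, 0.769 and 0.956 in vehicle replicates 1, 2 and 3, with no overlap between groups. Their summed FPKM relative to the microglia markers, which had been set as a test, differed by 0.09 on the log2 scale (exact permutation p = 0.6, adjusted p = 0.8). The transcript of C3ar1 had the lowest GC content of the members, 43.0%, and that of C5ar1 had 49.2%. With a per-library correction for GC content C3ar1 stood at 0.07 and C5ar1 at 0.43.

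Complement receptor 3, also known as CD11b/CD18, binds C3 fragments on tagged targets. Itgam, which encodes its alpha subunit, gave 32.0, 26.6 and 28.5 CPM with AVE0991 and 30.7, 22.7 and 27.6 CPM with vehicle, replicates 1 to 3 in each. Itgb2, the beta subunit shared with other leukocyte integrins, gave 10.3, 9.43 and 9.15 CPM with AVE0991 and 9.54, 7.51 and 9.40 CPM with vehicle. Both were lowest in vehicle replicate 2 and highest in AVE0991 replicate 1, and the groups overlapped in both. The log2 fold change was 0.10 for Itgam (SE 0.14, interval -0.23 to 0.43, adjusted p = 0.690) and 0.13 for Itgb2 (SE 0.14, interval -0.21 to 0.46, adjusted p = 0.615). The FPKM ratio of Itgam to Itgb2 was 1.87, 1.71 and 1.89 in AVE0991 libraries and 1.96, 1.84 and 1.78 in vehicle libraries (exact permutation p = 0.7, adjusted p = 0.8). Among 13623 genes Itgb2 was the sixth most like Itgam in profile, at a root mean square difference of 0.06, close to that between C1q chains. L3hypdh, Wnt7b and Brsk1 were the nearest, at 0.05 to 0.06. Itgam did not follow C1q in every library. Relative to its mean of 6 libraries Itgam stood at -0.07 in AVE0991 replicate 2, where the chains stood at -0.34 to -0.25. In vehicle replicate 1 Itgam was at 0.14 and the chains at -0.10 to -0.05. Itgam was at -0.29 in vehicle replicate 2, with the chains at -0.03 to 0.02. They lay closer in AVE0991 replicates 1 and 3 and in vehicle replicate 3. Neutrophils and monocytes also carry this receptor; markers of those cells summed to 28.4, 20.3 and 24.3 CPM in AVE0991 and 44.0, 16.1 and 30.8 CPM in vehicle replicates 1, 2 and 3, with their part not tested.

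**Figure D3:**
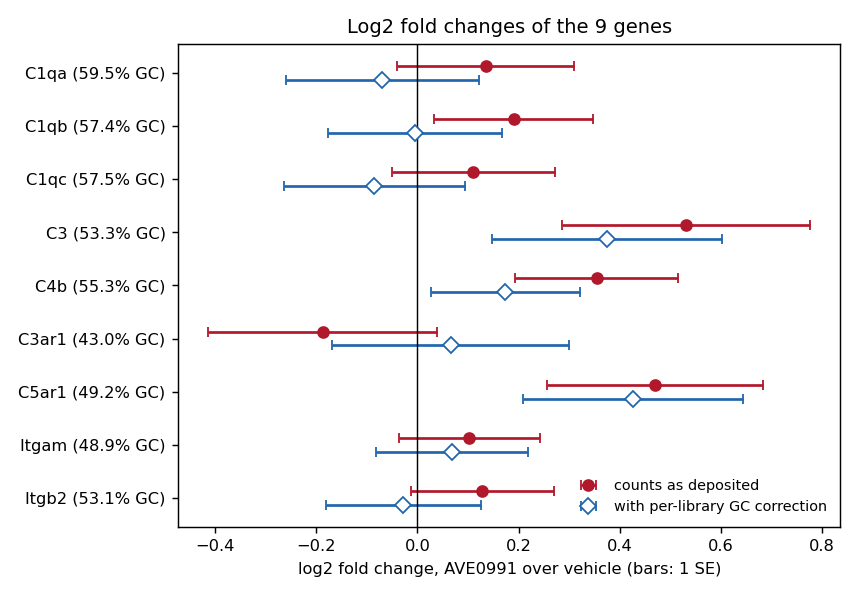
Log2 fold change of AVE0991 over vehicle (x axis) with 1 SE for each complement gene (y axis, with the GC content of its longest transcript), from the counts as deposited (filled) and with a per-library GC correction (open). With the correction the C1q chains lie between -0.08 and 0.00, C3ar1 moves to 0.07, and C3 and C5ar1 stay the highest at 0.37 and 0.43.

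GC content moved with the group in this series. Genes whose longest transcript had at most 45% GC had a median log2 fold change of -0.32 over 4219 genes, and genes of at least 55% GC one of 0.19 over 3876 genes. C1qa, C1qb, C1qc and C4b, at 55.3% to 59.5% GC, belonged to the GC-rich class. With the correction C1qa stood at -0.07, C1qb at 0.00 and C1qc at -0.08. C4b was then at 0.17, C3 at 0.37, Itgam at 0.07 and Itgb2 at -0.03. The corrected fit called 1 of all 20363 genes, so its 0 calls among the members carry no information about them.

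Around the members, 51 other complement genes were followed in 5 lists ordered by role. Of these 50 had a row and 35 passed the filter on low counts. By edgeR 0 of the 35 were called, against 0.864% of all genes, and 6 had an unadjusted p under 0.05, where 23.6% of all genes did. DESeq2 called 1 higher and 5 lower, where it called 4.09% of all genes higher and 5.76% lower. Limma-voom called 0 higher and 1 lower (Csmd3, adjusted p = 0.026), where it called 2.2% of all genes higher and 3.54% lower. Their log2 fold changes had a median of -0.03, with 17 above 0 and 18 below. The groups did not overlap in 1 of the 35 with AVE0991 higher and in 5 with AVE0991 lower. Over all genes tested they did not overlap in 14.3% and 16.3%, in the same order. All 6 genes with an unadjusted p under 0.05 were among the regulators.

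Early steps of the classical and lectin pathways gave 0 calls by edgeR among 9 tested genes of 14 listed (median log2 fold change 0.14). Of all genes tested 0.864% were called. Masp1, a lectin pathway protease, averaged 11.6 ± 0.177 CPM in AVE0991 and 10.6 ± 0.948 CPM in vehicle libraries (SD, n = 3 each), at a log2 fold change of 0.14 (SE 0.11). C2, the protease subunit that joins C4b in the C3 convertase, averaged 4.17 ± 0.228 CPM in AVE0991 and 3.30 ± 0.786 CPM in vehicle libraries (0.34, SE 0.21). Masp2, the main lectin pathway protease, averaged 0.602 CPM in AVE0991 and 0.842 CPM in vehicle libraries (-0.49, SE 0.34). In the alternative pathway Cfp, encoding properdin, averaged 1.75 ± 0.752 CPM in AVE0991 and 1.24 ± 0.174 CPM in vehicle libraries. Cfb, encoding factor B, averaged 0.821 ± 0.311 CPM in AVE0991 and 0.578 ± 0.401 CPM in vehicle libraries. Neither passed (adjusted p = 0.441 and 0.608), and Cfd, the factor D gene, did not pass the filter. Genes of the terminal pathway, which forms the membrane attack complex, were scarce. Hc, the mouse gene of C5, averaged 0.220 CPM in AVE0991 and 0.318 CPM in vehicle libraries. C7 averaged 0.170 CPM in AVE0991 and 0.375 CPM in vehicle libraries, and C8g 0.460 CPM in AVE0991 and 0.505 CPM in vehicle libraries. C6, C8a and C8b did not pass the filter, and C9 was at 0 counts in all 6 libraries.

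Among the regulators 0 of 14 tested genes of 19 listed were called by edgeR, where 0.864% of all genes were. DESeq2 called 1 of the 14 higher and 5 lower, where it called 4.09% of all genes higher and 5.76% lower. Clu, which encodes clusterin, a chaperone and terminal pathway inhibitor, was by far the most abundant, at 993 ± 141 CPM in AVE0991 and 841 ± 39.9 CPM in vehicle libraries (log2 fold change 0.24, SE 0.14, adjusted p = 0.327). Vtn, encoding vitronectin, averaged 55.1 ± 8.30 CPM in AVE0991 and 48.5 ± 13.8 CPM in vehicle libraries. Susd4, a membrane regulator of the C3 convertase, averaged 120 ± 4.70 CPM in AVE0991 and 111 ± 2.10 CPM in vehicle libraries (0.10, SE 0.09). Its groups did not overlap, with AVE0991 higher, as in 14.3% of all genes tested.

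The following regulators were picked after their values were seen, from the 6 with an unadjusted p under 0.05; 5 of them are described. Cd55, decay-accelerating factor, gave 1.40, 1.39 and 2.02 CPM with AVE0991 and 3.42, 2.94 and 2.87 CPM with vehicle (-0.94, SE 0.23, adjusted p = 0.10). Cd46, a cofactor for C3b cleavage, gave 1.28, 1.41 and 1.75 CPM with AVE0991 and 4.14, 2.64 and 2.81 CPM with vehicle (-1.11, SE 0.26, adjusted p = 0.0936). For both genes all AVE0991 libraries lay below all vehicle libraries, as they did in 16.3% of all genes tested. Csmd3 averaged 43.3 ± 9.79 CPM in AVE0991 and 77.1 ± 3.37 CPM in vehicle libraries (-0.83, SE 0.16, adjusted p = 0.0693). Csmd1, a neural membrane protein that can inhibit complement, averaged 150.1 ± 38.4 CPM in AVE0991 and 304 ± 111 CPM in vehicle libraries (-1.02, SE 0.30, adjusted p = 0.128). The groups of both Csmd genes did not overlap. Serping1, encoding the C1 inhibitor, was the 1 of these genes that stood higher, at 11.3, 17.7 and 19.7 CPM with AVE0991 and 7.60, 11.8 and 7.73 CPM with vehicle. Its groups overlapped, since AVE0991 replicate 1 was below vehicle replicate 2 (0.84, SE 0.26, adjusted p = 0.137).

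DESeq2 called all 5 of these genes, where it called 9.85% of all genes. Its adjusted p-values were 0.00306 for Csmd3, 0.00527 for Cd46, 0.00903 for Cd55, 0.0196 for Csmd1 and 0.0294 for Serping1. The 5 had been picked by their edgeR p-values on the same counts, so these calls are no separate support. In the authors' deposited table, also from DESeq2 on these libraries, their q-values ran from 0.00497 for Csmd3 to 0.0477 for Serping1. With the GC correction Cd46 stood at -0.59, Csmd3 at -0.54, Cd55 at -0.72, Csmd1 at -1.11 and Serping1 at 0.71, in the fit that called 1 of all 20363 genes. The longest transcripts of Cd46, Csmd3 and Cd55 had 39.1%, 42.5% and 43.5% GC, in the class whose median log2 fold change was -0.32. Those of Csmd1 and Serping1 had 50.3% and 52.3% GC. Estimated counts of Cd46, Cd55 and Csmd1 were not whole in all 6 libraries, so reads may have been divided with related or overlapping genes. Without AVE0991 replicates 2 and 3 the log2 fold change was -1.31 for Cd46, -1.13 for Cd55, -0.79 for Csmd1, -0.50 for Csmd3 and 0.33 for Serping1; that fit called 0 of all 21972 genes tested in it.

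**Figure D4:**
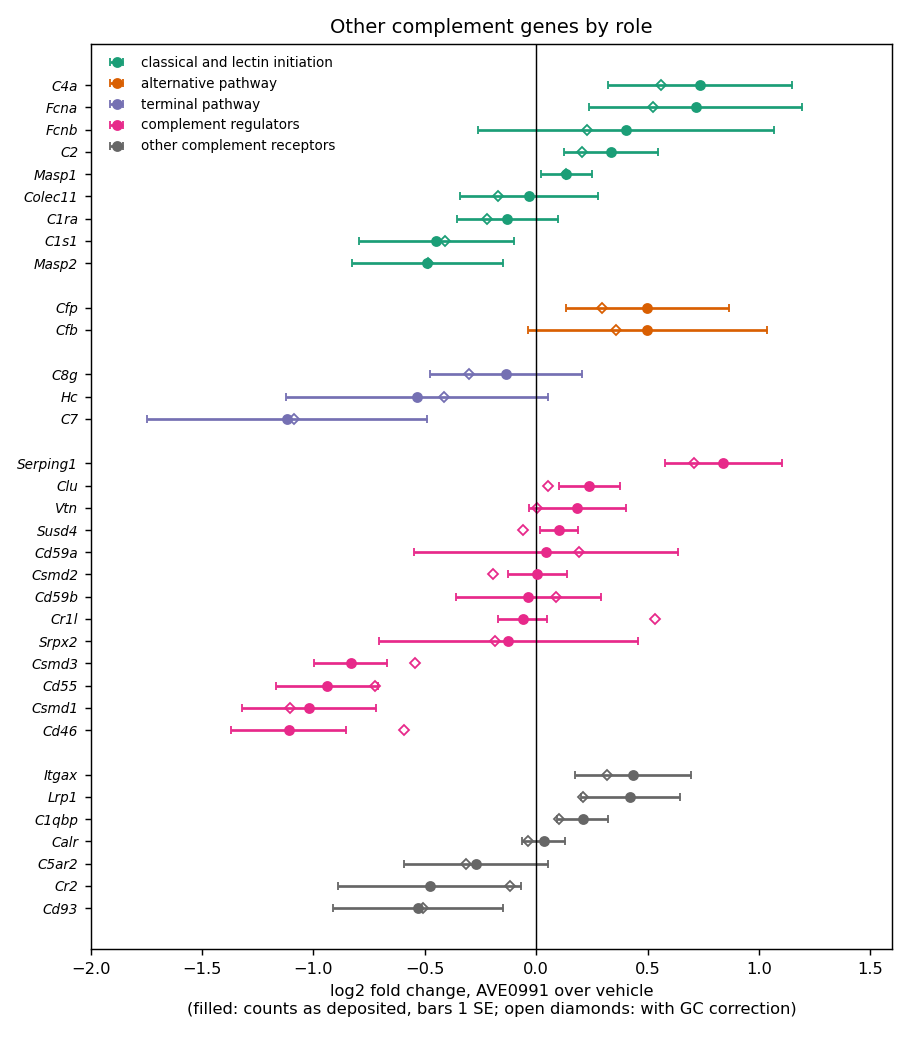
Log2 fold change of AVE0991 over vehicle (x axis) with 1 SE for tested complement genes outside the 9 members (y axis), coloured by list; open diamonds give the value with the GC correction. Cd46, Csmd1, Cd55 and Csmd3 are the lowest of the regulators, between -1.11 and -0.83, and Serping1 is the highest at 0.84; none passed by edgeR.

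Among other complement receptors and binding proteins 0 of 7 tested genes of 8 listed were called by edgeR (median log2 fold change 0.03). Of all genes tested 0.864% were called. Lrp1, a large scavenger receptor, averaged 1370 ± 427 CPM in AVE0991 and 1021 ± 62.4 CPM in vehicle libraries (0.42, SE 0.22, adjusted p = 0.290). It was highest in AVE0991 replicate 2, at 1839 CPM, and without AVE0991 replicates 2 and 3 it stood at -0.02. Calr, encoding calreticulin, averaged 271 ± 13.2 CPM in AVE0991 and 265 ± 11.1 CPM in vehicle libraries. C1qbp, a mitochondrial protein first described as a C1q-binding protein, averaged 39.5 ± 3.42 CPM in AVE0991 and 34.2 ± 3.33 CPM in vehicle libraries (0.21, SE 0.12, adjusted p = 0.317).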

How the data were processed

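The members and gene lists were chosen with earlier results of these data known. The authors deposited 1 table with estimated counts and FPKM values per library. Alignment was by HISAT to mm9, per the submitters' processing notes. Neither annotation nor counting program nor strand setting was given in the sources used here. The FPKM unit was worked out from the deposited values. A second table by the authors gave a log2 fold change, p-value and q-value per gene, from DESeq2 per the file headers; its sign matched AVE0991 over vehicle in 98.0% of 20363 genes. Estimated counts of gene rows were rounded and fitted in R 4.3.3 with edgeR 4.0.16 (filterByExpr, TMM, robust quasi-likelihood F test, no covariates), with Benjamini-Hochberg adjustment over all 20363 genes tested and a threshold of 0.05. Standard errors were derived from the F statistic and the fold change. DESeq2 1.42.0 and limma 3.58.1 were alternatives. The test was checked on simulated data. Deviations and profiles use log2 CPM with a prior count of 2. GC content is that of the longest GENCODE M21 transcript, known for 16864 genes, and its correction is a lowess fit per library. The 5 relative values were tested with exact permutation tests in SciPy 1.17.1. Named genes were the members, the 3 genes of highest mean FPKM and any called gene per list, and the 3 nearest profiles among genes with an established symbol and a mean of at least 1 CPM; 5 regulators picked later are marked in the text. A few genes that these rules name are not reported here. Replicates of a group differed beyond sampling noise (chi-square of at least 16.4 per gene), so all counted. Promoter sequences are from RefSeq, GRCm38.p6.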

Additional observations from a re-analysis of the deposited data

How the results depend on the processing

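Each member was recomputed under 17 alternatives, 153 values in all: 144 kept their sign, 0 members were called under any (several of which called few or no genes at all, by the counts over all genes), and the smallest adjusted p was 0.105, for C5ar1 by limma-voom. C3, C4b and C5ar1 kept their sign under all 17. With the GC correction the sign turned for C1qa (-0.069), C1qb (-0.0048), C1qc (-0.085), C3ar1 (0.066), Itgb2 (-0.028), Susd4 (-0.059) and Calr (-0.036). Leaving out single libraries moved C1qa between -0.0187 and 0.311 and C1qc between -0.0431 and 0.268, both lowest without AVE0991 replicate 1. Itgam ranged from -0.0057 without vehicle replicate 2 to 0.227, and C8g from -0.328 to 0.0547. Without AVE0991 replicates 2 and 3, a choice made after seeing the data, the sign turned for C3ar1 (0.14), Cfb (-0.099), Cfp (-0.36), Vtn (-0.083) and Lrp1 (-0.0171). C8g was at 0.0299 by limma-voom, and Calr at -0.0496 by limma on log2 FPKM. The cause of these turns was not tested.

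The count over all genes, 176, was 437 with no low-count filter, 346 with a mean CPM of at least 1, 2036 by DESeq2, 1170 by limma-voom, 294 by limma on log2 FPKM, 2 with circular RNA rows in the same fit and 1 with the GC correction. It ranged from 0 to 2381 without single libraries, was 2381 without AVE0991 replicate 1 and 0 without any other, and was 0 without AVE0991 replicates 2 and 3. Of the other complement genes 2 were called with no low-count filter, where 437 of all 33731 genes were. With a mean CPM of at least 1 it was 1 of them, where 346 of all 15762 genes were called. DESeq2 called 6 and limma-voom 1 of them, where they called 9.85% and 5.75% of all genes. Without single libraries 0 to 3 were called. The 3 came without AVE0991 replicate 1, where 2381 of all 20918 genes were called.

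Replicate numbers gave no evident pairing of the libraries. Deviations of same-numbered libraries correlated at -0.0206, 0.092 and -0.353, and not every library correlated best with its own number. With 3 libraries per group these correlations cannot exclude a pairing. With the replicate number as a block 0 genes were called.

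On the log2 scale C4b over astrocyte markers was 0.181 from CPM, and without single libraries it ranged from -0.196 to 0.148. The C1q chain balance ranged from -0.0383 to 0.0041, Itgam to Itgb2 from -0.0582 to 0.0179, and anaphylatoxin receptors over microglia markers from -0.0214 to 0.165. The anaphylatoxin receptor genes rested on 78 to 170 counts per library, which limits the size of change that could be seen.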
